A study of Mus musculus with 12 samples.

Results

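The genes described here are the mouse zinc finger genes with symbols from Zfp900 to Zfp999. They were chosen by symbol alone, as every row of the deposited count table whose symbol was Zfp followed by a number of that range. This gave 61 rows with 60 symbols among 20529 listed genes, because Zfp965 stood on 2 identifiers, the second of which the annotation names Gm11007. The annotation gives such names to 6 more listed genes, which the table lists with no symbol (5) or another one (1). 4 of them lie on chromosome 4, and they are not counted among the 61 unless stated. All 61 passed the filter on low counts, 60 were annotated as protein-coding and Zfp939 as a pseudogene. The study sequenced total RNA of mouse embryonic stem cells in 12 libraries, and its title concerns silencing pathways that meet on GW182/Tnrc6 proteins. In order, the 4 groups of 3 libraries were Tnrc6a Trim71-/-, Tnrc6a Ctrl, Cas9 Trim71-/- and Cas9 Ctrl. The first pair overexpressed Tnrc6a and the other pair Cas9, each in control cells and in cells labelled Trim71-/-. All 4 groups shared the 129S6/SvEvTac background, a stably transfected FLAG-Cas9 construct that carries a Blasticidin cassette and the reporter GFP_5xT71BS, so the Cas9 groups stand as the comparison for added Tnrc6a. Cells grew with serum and LIF on gelatin in triplicate wells. Nothing in the labels says that the wells came from separate cell lines or clones, or gives a batch or a date, so p-values measure the spread between wells. Tnrc6a (GW182) is the Argonaute partner that brings deadenylases to silenced mRNAs, and Trim71 is an RNA-binding repressor of the TRIM-NHL family.

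Most numbered mouse Zfp genes of this kind encode KRAB zinc finger proteins. An array of zinc fingers reads a DNA sequence, and the KRAB domain binds the corepressor Trim28 (KAP1), which brings the histone methyltransferase Setdb1 and leaves H3K9me3. Many of these proteins silence endogenous retroviruses in embryonic stem cells. Many of the genes arose by tandem duplication and lie in clusters of similar copies. Deletion of the chromosome 4 cluster in mouse embryonic stem cells is known to raise RNA of ETn-type retroviral elements.

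Library depth, as summed counts, was 24303863 to 26467426 in Tnrc6a Trim71-/-, 26022893 to 28372422 in Tnrc6a Ctrl, 23215587 to 31552915 in Cas9 Trim71-/- and 20758151 to 27320667 in Cas9 Ctrl. The free-text input lines of 9 libraries named other cells than their titles (HA-AVI-Tnrc6a in Cas9 Trim71-/-, Upf1-/- in Tnrc6a Trim71-/- and Ago2-/- in Tnrc6a Ctrl), so the groups rest on titles and the overexpression tag, and whether these alleles were present could not be settled from the labels. Tnrc6a RNA averaged 285.0 ± 9.87 and 261.0 ± 9.39 RPKM in Tnrc6a Trim71-/- and Tnrc6a Ctrl, and 11.4 ± 0.77 and 10.4 ± 0.104 RPKM in Cas9 Trim71-/- and Cas9 Ctrl (SD, n = 3). Trim71 RNA averaged 25.7 ± 0.977 RPKM in Tnrc6a Trim71-/- and 28.3 ± 1.27 RPKM in Tnrc6a Ctrl, and 29.5 ± 1.52 RPKM in Cas9 Trim71-/- and 32.8 ± 1.52 RPKM in Cas9 Ctrl (SD, n = 3). The labels do not say which part of Trim71 was altered, so its RNA checks nothing about the genotype. Markers of the labelled cell type were present, among them Pou5f1 at 347.0, 315.0, 693.0 and 652.0 RPKM in the same order of groups.

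By their annotated starts, 42 of the 61 genes fell into 6 genomic clusters, with neighbours at most 1000000 bases apart and at least 3 genes each (GENCODE M21, GRCm38). The chromosome 4 cluster spans chr4:145510759-147848366 and holds 12 of the genes, namely Zfp990, Zfp980, Zfp987, Zfp992, Zfp981, Zfp991, Zfp988, Zfp982, Zfp985, Zfp979, Zfp984 and Zfp933. The chromosome 2 cluster (chr2:175372436-178078476) and the chromosome 17 cluster (chr17:21567008-22867134) hold 10 each. Smaller ones lie at chr7:42579783-43192109 with 4 genes, at chr13:66119547-67360605 with 3 and at chr8:69209038-69749970 with 3, and 19 genes lie in none.

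RefSeq promoter windows (GRCm38.p6, 250 bases before to 50 bases after a start) were found for 52 of the symbols, with 60 windows. Printed here are the windows of 3 chromosome 4 genes among those whose RNA fell most with Tnrc6a and, for contrast, the window of Zfp933, the gene at the end of the same cluster whose RNA was called in no comparison. Capitals mark matches on either strand to CCAAT, which reads ATTGG on the opposite strand, and to GGGCGG and CACGTG, and in Zfp980 and Zfp988 the first pair of motifs overlap and print as 1 run.
Zfp980 (chr4:145670447-145670746, plus strand): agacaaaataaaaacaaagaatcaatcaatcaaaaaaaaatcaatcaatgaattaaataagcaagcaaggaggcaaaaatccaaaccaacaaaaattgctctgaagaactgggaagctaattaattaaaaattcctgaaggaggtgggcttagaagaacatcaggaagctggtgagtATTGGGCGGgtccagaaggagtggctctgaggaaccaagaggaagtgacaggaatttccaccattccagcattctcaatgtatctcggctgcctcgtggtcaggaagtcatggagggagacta
Zfp987 (chr4:146097062-146097361, plus strand): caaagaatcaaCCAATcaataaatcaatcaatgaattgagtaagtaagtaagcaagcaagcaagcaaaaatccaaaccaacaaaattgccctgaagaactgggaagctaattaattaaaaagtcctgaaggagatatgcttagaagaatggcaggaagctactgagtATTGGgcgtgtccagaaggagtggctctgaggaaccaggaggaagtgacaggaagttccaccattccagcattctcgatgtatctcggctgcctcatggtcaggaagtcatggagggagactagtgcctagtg
Zfp988 (chr4:147305354-147305653, plus strand): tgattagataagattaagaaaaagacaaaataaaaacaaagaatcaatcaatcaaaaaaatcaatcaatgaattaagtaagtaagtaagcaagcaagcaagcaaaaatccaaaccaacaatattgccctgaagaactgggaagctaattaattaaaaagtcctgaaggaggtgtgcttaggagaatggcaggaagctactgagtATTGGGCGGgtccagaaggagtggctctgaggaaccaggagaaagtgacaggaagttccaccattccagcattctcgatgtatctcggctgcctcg
Zfp933 (chr4:147848369-147848668, minus strand): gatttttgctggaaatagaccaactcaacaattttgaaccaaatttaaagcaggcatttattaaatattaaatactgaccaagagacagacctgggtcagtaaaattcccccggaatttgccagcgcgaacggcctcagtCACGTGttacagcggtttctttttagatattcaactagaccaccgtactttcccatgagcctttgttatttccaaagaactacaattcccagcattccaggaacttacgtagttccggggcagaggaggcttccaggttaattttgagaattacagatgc

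The first 3 windows are near copies and the fourth is not. Over the 8 chromosome 4 genes other than Zfp933 with a window at their start, 28 pairs of windows shared between 69.0% and 91.0% of their bases, with a median of 81.85%. The 8 pairs that include Zfp933 shared 49.7% to 55.0%, with a median of 51.15%. The median was 51.3% for 1066 pairs of genes that lie in different clusters or of which exactly 1 lies in a cluster. Within the other clusters the median identity was 87.0% on chromosome 2, 80.8% on chromosome 7 and 52.7% on chromosome 17. Zfp933 was chosen for contrast after its values were seen. In the plot of promoter identity beside RNA change, Zfp933 lies apart in identity and in the change with Tnrc6a. It also differs in level, at a mean of 1.59 RPKM over all libraries against 22.2 to 55.1 RPKM for the other 8. With Trim71-/- under Cas9 its change of -0.01 lies beside -0.08 for Zfp979, whose window shares 91.0% of its bases with that of Zfp980. Whether promoter sequence bears on these changes was not tested.

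**Figure D1:**
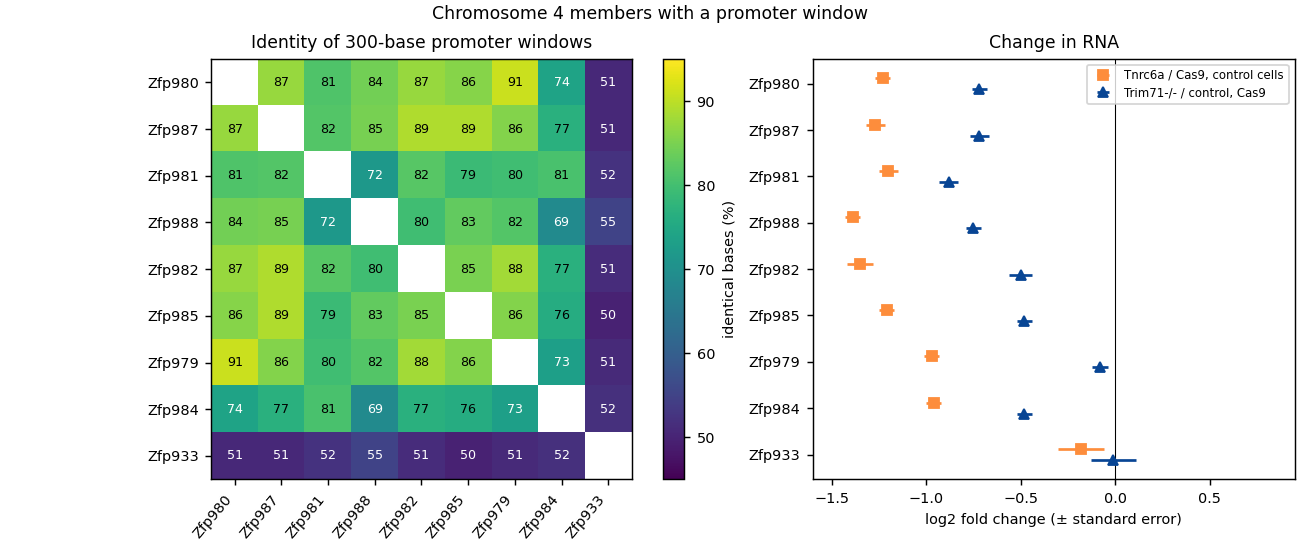
Left, percent of identical bases between aligned 300-base promoter windows of the 9 chromosome 4 genes that have one, in order along the chromosome. Right, log2 fold change of each gene (± standard error) for Tnrc6a against Cas9 in control cells (squares) and Trim71-/- against control with Cas9 (triangles). Zfp933, in the last row, has identities of 49.7% to 55.0% and changes of -0.18 and -0.01.

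Motif letters were then counted over all windows on both strands. CCAAT was found in 80.0% of the 60 windows of these genes, against 37.41% of all 32851 windows. GGGCGG was found in 8 of 11 chromosome 4 windows (72.73%), in 35.0% of the windows of all members and in 35.66% of all windows. TATAAA was found in 0 of 60 windows against 13.62% of all windows, CACGTG in 11.67% against 7.15%, TGACGTCA in 1.67% against 1.79% and the NRF1 motif in 0 of 60 against 4.6%. CCAAT is the site of the factor NF-Y and GGGCGG of Sp1-type factors. A match is a description of these letters and says nothing of binding.

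Both the Tnrc6a and the Trim71-/- groups had lower summed RNA of these genes, and most of the drop lay on chromosome 4. Because near-identical copies share reads, sums are given before single genes. They are in CPM, counts scaled to TMM-adjusted library sizes, and no test was run on them. All 61 genes together reached 1384.8, 1442.2 and 1378.4 CPM in Tnrc6a Trim71-/-, 1627.0, 1639.1 and 1744.3 CPM in Tnrc6a Ctrl, 2278.6, 2244.0 and 2137.4 CPM in Cas9 Trim71-/- and 2894.2, 2935.1 and 3026.0 CPM in Cas9 Ctrl. The libraries of the 4 groups did not overlap. The 12 chromosome 4 genes reached 594.0, 626.0 and 575.0 CPM in Tnrc6a Trim71-/-, 859.0, 871.0 and 938.0 CPM in Tnrc6a Ctrl, 1310.8, 1318.8 and 1246.1 CPM in Cas9 Trim71-/- and 1903.6, 1913.1 and 1982.7 CPM in Cas9 Ctrl. These groups did not overlap either, and the chromosome 4 genes made up 65.5% of the summed CPM of all 61 genes in Cas9 Ctrl.

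On the log2 scale of means, the chromosome 4 sum changed by -1.12 (2.17-fold) with Tnrc6a in control cells and by -1.11 (2.16-fold) in Trim71-/- cells. With Trim71-/- it changed by -0.57 (1.49-fold) under Tnrc6a and by -0.58 (1.5-fold) under Cas9. From Tnrc6a Trim71-/- to Cas9 Ctrl the difference was 3.23-fold. The other 49 genes summed to 804.0 ± 13 CPM in Tnrc6a Trim71-/-, 781.0 ± 21.8 CPM in Tnrc6a Ctrl, 928.0 ± 38.4 CPM in Cas9 Trim71-/- and 1018.6 ± 26.5 CPM in Cas9 Ctrl (SD, n = 3). Their log2 differences with Tnrc6a were -0.21 in Trim71-/- cells and -0.38 in control cells, and with Trim71-/- 0.04 under Tnrc6a and -0.13 under Cas9. In bulk RNA, fewer cells that transcribe a gene and less RNA per cell cannot be told apart. With the 6 genes named by the annotation only, the sum of all 67 changed by -0.85 and -0.69 with Tnrc6a in control and Trim71-/- cells. The 4 comparisons share groups in pairs, so each is given by its own values.

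**Figure D2:**
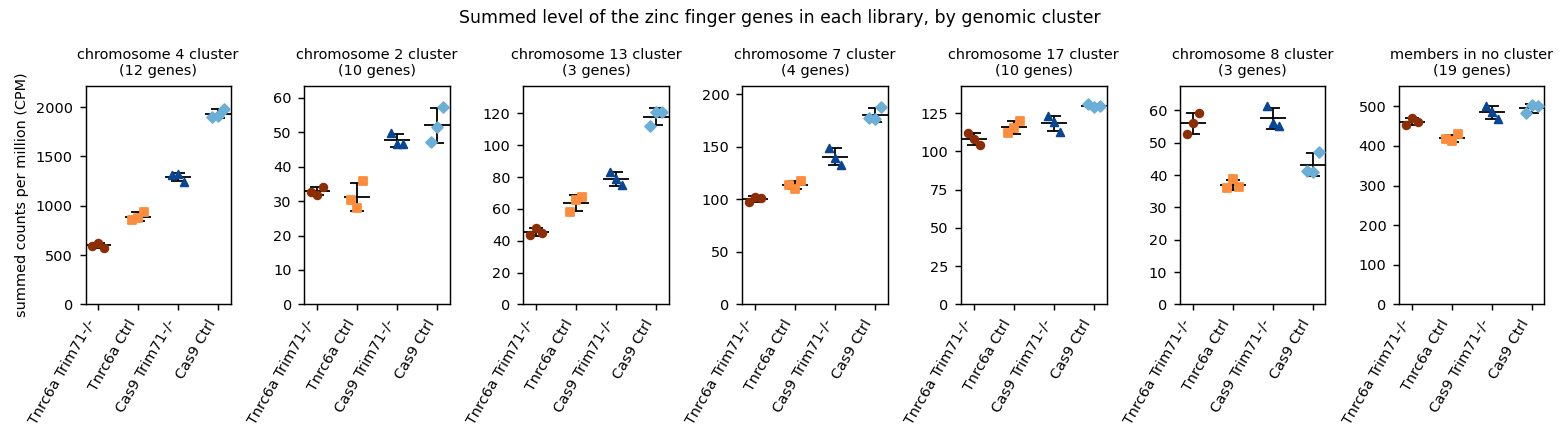
Summed CPM of the zinc finger genes of each genomic cluster in each library, with group mean and SD (black), for 4 groups of 3 libraries. The chromosome 4 panel steps up through all 4 groups without overlap, with group means of 598.0, 889.0, 1291.9 and 1933.1 CPM from left to right.

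Tnrc6a against Cas9 gave the broadest change in these genes. In control cells 39 of 61 were lower (63.9%, against 33.1% of all genes tested) and 4 were higher (6.6%, against 30.4%) at an edgeR adjusted p under 0.05. In Trim71-/- cells 31 were lower (50.8%, against 30.9% of all genes) and 8 were higher (13.1%, against 32.0%). The median log2 change of the 61 genes was -0.25 in Trim71-/- cells and -0.45 in control cells, where all genes had medians of 0.02 and -0.02. Of 322 Zfp genes with numbers outside that range, 68 were lower and 132 higher in Trim71-/- cells (21.1% and 41.0%, against 30.9% and 32.0% of all genes). In control cells 95 of them were lower and 107 higher (29.5% and 33.2%), near the 33.1% and 30.4% of all genes.

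The chromosome 4 genes carried the largest falls. With Tnrc6a, 11 of 12 were lower in each genotype, with a median log2 change of -1.18 in Trim71-/- cells and -1.14 in control cells. Zfp988 (chr4:147305674-147333734) stood at 12.5, 12.9 and 12.9 RPKM in Tnrc6a Trim71-/-, 22.6, 23.0 and 24.3 RPKM in Tnrc6a Ctrl, 35.8, 37.7 and 35.4 RPKM in Cas9 Trim71-/- and 59.5, 59.5 and 63.6 RPKM in Cas9 Ctrl. No libraries of different groups overlapped. With Tnrc6a, Zfp988 fell 2.85-fold in Trim71-/- cells (log2 change -1.51, SE 0.05, edgeR adjusted p = 2.21e-28) and 2.61-fold in control cells (-1.39, SE 0.04, edgeR adjusted p = 2.36e-28).

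Zfp987 (chr4:146097298-146126621) stood at 9.18, 10.3 and 9.23 RPKM in Tnrc6a Trim71-/-, 16.1, 16.4 and 18.4 RPKM in Tnrc6a Ctrl, 25.6, 24.8 and 24.4 RPKM in Cas9 Trim71-/- and 40.6, 40.4 and 42.0 RPKM in Cas9 Ctrl. Zfp980 (chr4:145670685-145704441) stood at 23.9, 24.9 and 22.9 RPKM in Tnrc6a Trim71-/-, 39.5, 41.3 and 43.2 RPKM in Tnrc6a Ctrl, 59.9, 58.7 and 57.6 RPKM in Cas9 Trim71-/- and 96.1, 97.3 and 96.6 RPKM in Cas9 Ctrl. Both genes were lowest in Tnrc6a Trim71-/- and highest in Cas9 Ctrl, with no overlap between any groups. With Tnrc6a, Zfp987 fell by 1.39 ± 0.05 in Trim71-/- cells and by 1.27 ± 0.05 in control cells on the log2 scale (± SE), and Zfp980 by 1.3 ± 0.04 and 1.23 ± 0.04 in the same order. Their promoters printed above share 87.3% of their bases.

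Zfp982 is the member of the cluster best described in mouse embryonic stem cells, where it is known to bear on the pluripotency genes Nanog and Zfp42. Zfp982 (chr4:147492417-147513486) stood at 11.0, 11.3 and 10.8 RPKM in Tnrc6a Trim71-/-, 13.7, 14.3 and 15.4 RPKM in Tnrc6a Ctrl, 27.4, 27.7 and 23.2 RPKM in Cas9 Trim71-/- and 35.6, 36.3 and 38.9 RPKM in Cas9 Ctrl. No groups overlapped, and the Tnrc6a groups lay lowest. With Tnrc6a it fell 2.37-fold in Trim71-/- cells and 2.55-fold in control cells (edgeR adjusted p = 1.36e-19 and 7.44e-22). Of its windows of transcript sequence, 3.06% at 100 bases and 11.89% at 50 bases occur in another annotated gene. Its reads can thus be told from those of its neighbours better than for most genes of the cluster, though the read length is not given. Nanog itself stood at 354.0 RPKM in Tnrc6a Trim71-/-, 222.0 RPKM in Tnrc6a Ctrl, 340.0 RPKM in Cas9 Trim71-/- and 258.0 RPKM in Cas9 Ctrl. Zfp985 (chr4:147553277-147585198) stood at 18.5, 19.7 and 17.8 RPKM in Tnrc6a Trim71-/-, 25, 26 and 27.6 RPKM in Tnrc6a Ctrl, 44.3, 43.9 and 42.3 RPKM in Cas9 Trim71-/- and 61.5, 59.1 and 60.7 RPKM in Cas9 Ctrl. Zfp985 had 1.73% shared windows at 100 bases and 15.88% at 50 bases, and no overlap between groups. It fell with Tnrc6a by 1.22 ± 0.05 in Trim71-/- cells and by 1.21 ± 0.04 in control cells on the log2 scale (± SE).

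Zfp990 (chr4:145510759-145539188) had the highest mean level of all 61 genes, 60.8 RPKM over the 12 libraries. It stood at 30.2, 31.3 and 29.2 RPKM in Tnrc6a Trim71-/-, 45.3, 44.0 and 49.0 RPKM in Tnrc6a Ctrl, 70.4, 73.1 and 64.7 RPKM in Cas9 Trim71-/- and 94.1, 95.9 and 103.0 RPKM in Cas9 Ctrl, with no overlap. With Tnrc6a it fell 2.29-fold in Trim71-/- cells and 2.12-fold in control cells (edgeR adjusted p = 6.47e-24 and 5.8e-23). The next 5 genes by mean RPKM were Zfp980, Zfp985, Zfp979, Zfp988 and Zfp981, all in the same cluster. Zfp933, singled out after its values were seen, was the exception, at 1.43 to 1.67 RPKM in Tnrc6a Trim71-/-, 1.44 to 1.51 RPKM in Tnrc6a Ctrl, 1.5 to 1.87 RPKM in Cas9 Trim71-/- and 1.52 to 1.82 RPKM in Cas9 Ctrl. Its log2 changes with Tnrc6a were -0.11 (SE 0.12) and -0.18 (SE 0.12), neither past the threshold.

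**Figure D3:**
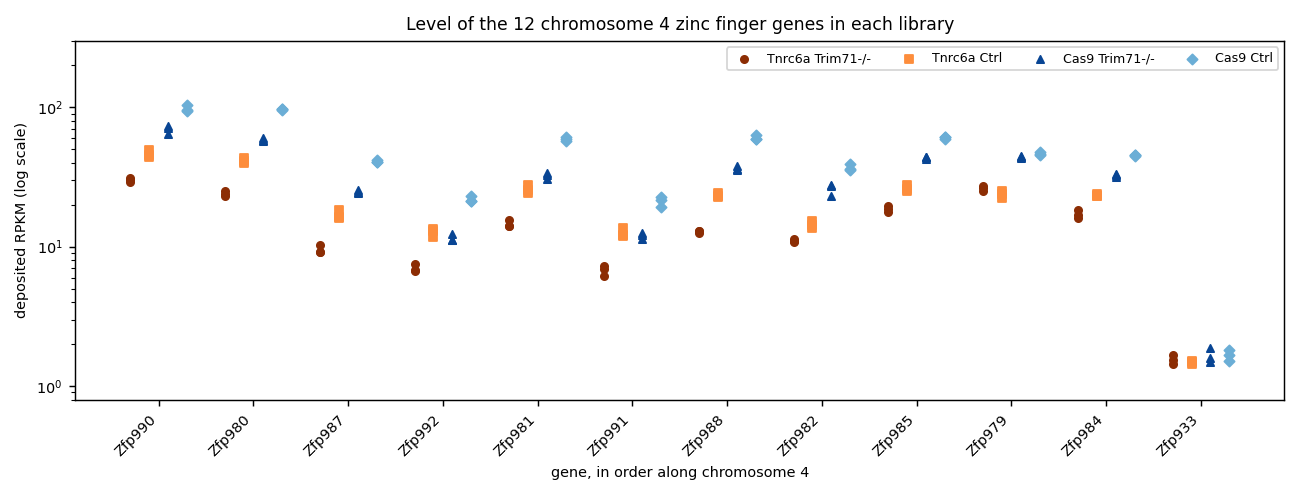
Deposited RPKM (log scale) of the 12 chromosome 4 zinc finger genes in each of the 12 libraries, in order along the chromosome. From Zfp990 to Zfp984 the Cas9 Ctrl libraries (diamonds) lie highest, and Tnrc6a Trim71-/- (circles) lowest except for Zfp979, while Zfp933 lies between 1.43 and 1.87 RPKM in all groups.

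The table lists 48 other genes inside the chromosome 4 span, and 8 of them have a Zfp or Rex symbol in the table or the annotation, a split made after values were seen. Of these 8, 4 (Zfp986, Zfp993, Zfp989 and Zfp978) have no symbol in the table and belong to the same range of numbers by the annotation. All 8 were lower with Tnrc6a in both genotypes, with a median log2 change of -1.3 in Trim71-/- cells and -1.23 in control cells. One of them, Zfp600, stood at 16.7 RPKM in Tnrc6a Trim71-/-, 33.1 RPKM in Tnrc6a Ctrl, 41.7 RPKM in Cas9 Trim71-/- and 77.7 RPKM in Cas9 Ctrl. Rex2, also inside the span, stood at 18.6, 34.4, 44.8 and 78.8 RPKM in the same groups. Over all 48 neighbours, these 8 included, 18 were lower (37.5%, against 30.9% of all genes) and 2 higher (4.2%, against 32.0%) in Trim71-/- cells. In control cells 20 were lower (41.7%, against 33.1%) and 6 higher (12.5%, against 30.4%). The median log2 change of the 48 was -0.07 in Trim71-/- cells and -0.14 in control cells, far from that of the 8.

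On chromosome 2, 5 of 10 genes were lower with Tnrc6a in Trim71-/- cells and 9 of 10 in control cells; the median log2 change was -0.40 in Trim71-/- cells and -0.67 in control cells. As a sum they stood at 32.7, 31.7 and 34.1 CPM in Tnrc6a Trim71-/-, 30.2, 27.9 and 35.7 CPM in Tnrc6a Ctrl, 49.8, 46.6 and 46.6 CPM in Cas9 Trim71-/- and 47.2, 51.5 and 57.3 CPM in Cas9 Ctrl. The Tnrc6a libraries lay below all Cas9 libraries, while Trim71-/- and control libraries overlapped. Single genes here are uncertain, because between 6.91% and 100% of their 100-base windows occur in another gene. The 41 other listed genes in this span were lower in 29 cases in Trim71-/- cells and 35 in control cells (70.7% and 85.4%, against 30.9% and 33.1% of all genes).

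In the remaining clusters 4 of 4 genes on chromosome 7 were lower with Tnrc6a in both genotypes, and 2 of 3 in Trim71-/- cells and 3 of 3 in control cells on chromosome 13. On chromosome 17, 3 of 10 were lower and 1 higher in Trim71-/- cells, and 4 lower and 1 higher in control cells. Of the 19 genes in no cluster, 5 were lower and 5 higher in Trim71-/- cells, and 7 lower and 2 higher in control cells. The shares lower were 30.0% and 40.0% on chromosome 17 and 26.3% and 36.8% in no cluster, near the 30.9% and 33.1% of all genes in Trim71-/- and control cells. This mixed group includes Zfp932, named after its values were seen, which with its paralog Gm15446 is known to bind ERVK-type retroviral elements in mouse cells. Gm15446 stood at 2.72 RPKM in Tnrc6a Trim71-/-, 2.60 RPKM in Tnrc6a Ctrl, 3.43 RPKM in Cas9 Trim71-/- and 3.67 RPKM in Cas9 Ctrl. Zfp932 stood at 4.08, 4.60 and 4.29 RPKM in Tnrc6a Trim71-/-, 3.63, 4.05 and 3.93 RPKM in Tnrc6a Ctrl, 5.80, 5.96 and 5.11 RPKM in Cas9 Trim71-/- and 5.77, 6.23 and 6.31 RPKM in Cas9 Ctrl. Tnrc6a libraries lay below Cas9 libraries, and Zfp932 was 1.3-fold lower with Tnrc6a in Trim71-/- cells and 1.58-fold lower in control cells (edgeR adjusted p = 8.14e-05 and 3.22e-09).

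**Figure D4:**
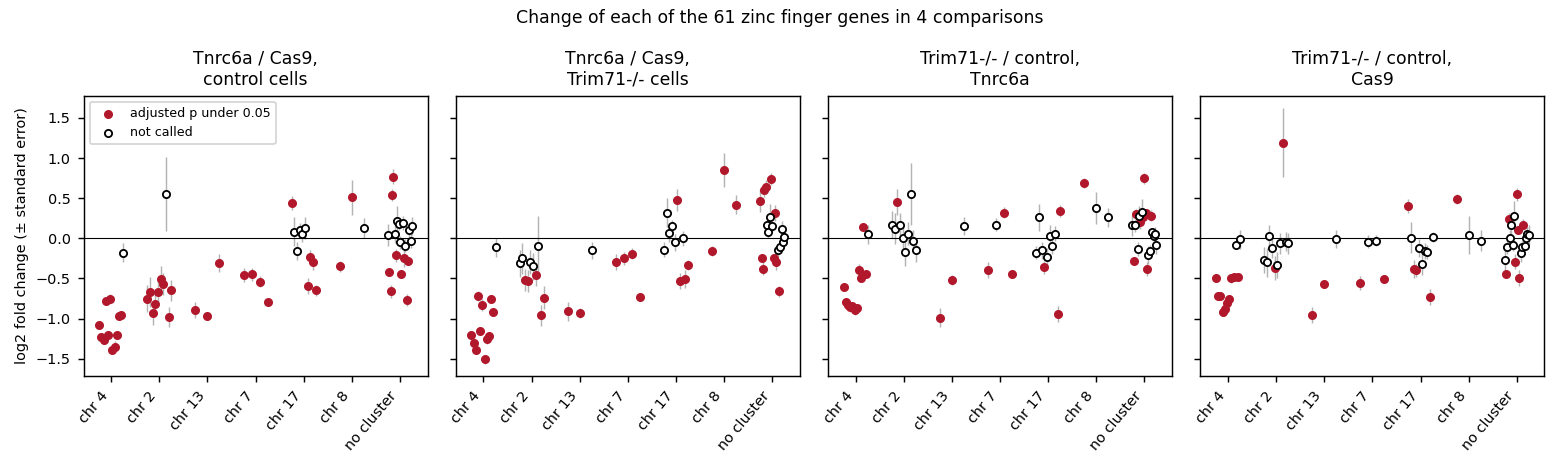
Log2 fold change (± standard error) of each of the 61 genes in the 4 comparisons, grouped by genomic cluster, with filled points at an adjusted p under 0.05. 11 of the chromosome 4 points lie below 0 and are filled in both Tnrc6a panels, and 9 of the 10 chromosome 2 points lie below 0 and are filled with Tnrc6a in control cells.

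Few genes rose with Tnrc6a. Zfp954 (chr7:7114690-7121488) stood at 5.95, 6.29 and 6.15 RPKM in Tnrc6a Trim71-/- and 3.96, 3.66 and 4.16 RPKM in Cas9 Trim71-/-, and at 7.01, 6.44 and 6.65 RPKM in Tnrc6a Ctrl and 3.93, 3.4 and 4.37 RPKM in Cas9 Ctrl. Tnrc6a and Cas9 libraries did not overlap in either genotype, with log2 changes of 0.64 (SE 0.09) in Trim71-/- cells and 0.77 (SE 0.09) in control cells (edgeR adjusted p = 8.69e-08 and 1.03e-09). Zfp956 (chr6:47953390-47965300) stood at 8.77, 8.64 and 9.05 RPKM in Tnrc6a Trim71-/-, 7.6, 6.34 and 7.49 RPKM in Tnrc6a Ctrl, 6.25, 5.79 and 5.34 RPKM in Cas9 Trim71-/- and 5.02, 4.72 and 4.97 RPKM in Cas9 Ctrl. Its Tnrc6a libraries lay above its Cas9 libraries. It rose 1.52-fold in Trim71-/- cells and 1.46-fold in control cells, and its exons overlap Zfp783 on the same strand. Zfp947 (chr17:22144359-22166190) stood at 2.25, 2.09 and 1.84 RPKM in Tnrc6a Trim71-/-, 1.84, 1.94 and 2.27 RPKM in Tnrc6a Ctrl, 1.27, 1.81 and 1.36 RPKM in Cas9 Trim71-/- and 2.02, 1.73 and 1.76 RPKM in Cas9 Ctrl. Its groups were apart in Trim71-/- cells and overlapped in control cells. Zfp948 rose in control cells (log2 change 0.44, SE 0.09), and Zfp941 and Zfp947 rose in Trim71-/- cells (0.74, SE 0.08, and 0.48, SE 0.14). Zfp964 lay low, at 0.299 to 0.482 RPKM in Tnrc6a Trim71-/-, 0.253 to 0.331 RPKM in Tnrc6a Ctrl, 0.176 to 0.267 RPKM in Cas9 Trim71-/- and 0.187 to 0.273 RPKM in Cas9 Ctrl. It rose in Trim71-/- cells (0.85, SE 0.21), while in control cells its groups overlapped and its call (0.51, edgeR adjusted p = 0.0397) was lost without Cas9 Ctrl replicate 1 or 3 (adjusted p = 0.144 and 0.138) or Tnrc6a Ctrl replicate 1 or 2 (0.0951 and 0.0967).

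In the Trim71-/- groups most chromosome 4 genes were lower than in the control groups, and of the 49 genes outside that cluster 31 did not pass the test with Tnrc6a and 31 did not with Cas9. With Cas9, 21 of 61 genes were lower in Trim71-/- cells (34.4%, against 19.1% of all genes) and 7 higher (11.5%, against 17.1%) at an edgeR adjusted p under 0.05. With Tnrc6a, 18 were lower (29.5%, against 19.0% of all genes) and 11 higher (18%, against 20%). The median log2 change of the 61 genes was 0.03 with Tnrc6a and -0.12 with Cas9, beside 0.00 and -0.01 for all genes. Of the 49 genes outside chromosome 4, 8 were lower and 10 higher with Tnrc6a (16.3% and 20.4%), and 11 lower and 7 higher with Cas9 (22.4% and 14.3%), shares nearer to those of all genes. The counts of higher genes depended on single libraries: with Cas9 they were 4 without Cas9 Ctrl replicate 2 or 3 and 3 without Cas9 Trim71-/- replicate 1, and with Tnrc6a 6 without Tnrc6a Ctrl replicate 2 and 7 without Tnrc6a Trim71-/- replicate 2.

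On chromosome 4, 10 of 12 genes were lower in Trim71-/- cells with either construct, with a median log2 change of -0.70 with Tnrc6a and -0.61 with Cas9. Zfp992 (chr4:146449023-146470292) stood at 6.80, 7.46 and 6.71 RPKM in Tnrc6a Trim71-/- and 13, 11.8 and 13.3 RPKM in Tnrc6a Ctrl, and at 11.1, 12.4 and 11.2 RPKM in Cas9 Trim71-/- and 21.1, 21.3 and 23.1 RPKM in Cas9 Ctrl. Zfp981 (chr4:146502027-146539395) stood at 14, 15.5 and 14 RPKM in Tnrc6a Trim71-/- and 24.4, 25.3 and 27.9 RPKM in Tnrc6a Ctrl, and at 32.5, 33.5 and 30.8 RPKM in Cas9 Trim71-/- and 57.1, 59.6 and 61.3 RPKM in Cas9 Ctrl. For both genes Trim71-/- libraries lay below control libraries with no overlap under each construct. Zfp992 was 1.82-fold lower with Tnrc6a and 1.89-fold lower with Cas9 (edgeR adjusted p = 1.09e-16 and 2.57e-18), and Zfp981 was 1.78-fold and 1.84-fold lower in the same order. Zfp991 (chr4:147132038-147180579) stood at 6.92, 7.28 and 6.18 RPKM in Tnrc6a Trim71-/-, 12.1, 11.9 and 13.7 RPKM in Tnrc6a Ctrl, 12.5, 12.2 and 11.4 RPKM in Cas9 Trim71-/- and 19.1, 21.5 and 22.7 RPKM in Cas9 Ctrl. Within each construct its groups were apart. Zfp991 was 1.85-fold lower with Tnrc6a and 1.75-fold lower with Cas9, and Zfp988 1.83-fold and 1.68-fold lower.

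Both exceptions in this cluster with Trim71-/- were Zfp979 and Zfp933, singled out after their values were seen. Zfp979 (chr4:147611937-147642513) stood at 26.5, 27.2 and 24.9 RPKM in Tnrc6a Trim71-/- and 22.5, 23.8 and 25.2 RPKM in Tnrc6a Ctrl, and at 44.5, 43.8 and 43.6 RPKM in Cas9 Trim71-/- and 47.7, 45.7 and 46.4 RPKM in Cas9 Ctrl. It was higher with Trim71-/- under Tnrc6a, where the groups overlapped (0.14, SE 0.04, edgeR adjusted p = 0.00954), and its change under Cas9 was -0.08 (SE 0.04, edgeR adjusted p = 0.113). The call under Tnrc6a was lost without Tnrc6a Ctrl replicate 1 or 2 (adjusted p = 0.248 and 0.0847) or Tnrc6a Trim71-/- replicate 2 (0.181). With Tnrc6a against Cas9, Zfp979 fell 1.68-fold in Trim71-/- cells and 1.96-fold in control cells. The 8 other zinc finger genes of the span were all lower in Trim71-/- cells, with a median of -0.83 with Tnrc6a and -0.72 with Cas9.

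The largest fall with Trim71-/- lay outside chromosome 4. Zfp997 (chr13:66119547-66122836) stood at 2.59, 3.23 and 2.90 RPKM in Tnrc6a Trim71-/- and 5.44, 5.83 and 6.0 RPKM in Tnrc6a Ctrl, and at 6.28, 5.93 and 4.04 RPKM in Cas9 Trim71-/- and 10.2, 10.8 and 11.1 RPKM in Cas9 Ctrl. Groups did not overlap within a construct, and the third Cas9 Trim71-/- library lay lowest of its group. Zfp997 fell 1.98-fold with Tnrc6a and 1.95-fold with Cas9 (edgeR adjusted p = 5.32e-09 and 5.19e-10). Of its windows of transcript sequence, 30.1% at 100 bases and 60.35% at 50 bases occur in another annotated gene. Zfp946 (chr17:22424222-22456689) stood at 1.65, 1.71 and 1.55 RPKM in Tnrc6a Trim71-/- and 2.95, 3.16 and 3.33 RPKM in Tnrc6a Ctrl, and at 2.12, 2.60 and 2.29 RPKM in Cas9 Trim71-/- and 3.65, 4.04 and 3.93 RPKM in Cas9 Ctrl. It fell 1.92-fold with Tnrc6a and 1.66-fold with Cas9, with no overlap (edgeR adjusted p = 4.23e-10 and 7.48e-08). On chromosome 2, 1 of 10 genes was lower with Cas9, a call lost without Cas9 Ctrl replicate 2 or 3 or Cas9 Trim71-/- replicate 2 or 3, and 1 was higher with each construct.

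Among genes of at least 0.5 CPM on average, Zfp958 and Zfp930 had the largest rises with Trim71-/- under both constructs, and both lie on chromosome 8. Zfp958 (chr8:4613167-4630231) stood at 11.7, 13.1 and 12.3 RPKM in Tnrc6a Trim71-/- and 7.81, 6.91 and 7.26 RPKM in Tnrc6a Ctrl, and at 12.2, 10.4 and 10.7 RPKM in Cas9 Trim71-/- and 7.74, 7.29 and 7.72 RPKM in Cas9 Ctrl. Zfp930 (chr8:69209038-69230536) stood at 8.06, 8.57 and 9.15 RPKM in Tnrc6a Trim71-/- and 5.12, 5.70 and 5.18 RPKM in Tnrc6a Ctrl, and at 10.3, 9.18 and 9.21 RPKM in Cas9 Trim71-/- and 6.47, 6.47 and 7.41 RPKM in Cas9 Ctrl. Within each construct Trim71-/- and control libraries did not overlap for either gene, with rises for Zfp958 of 1.68-fold with Tnrc6a and 1.47-fold with Cas9 (edgeR adjusted p = 1.45e-11 and 8.82e-08) and for Zfp930 of 1.61-fold and 1.41-fold. Chromosome 8 as a whole stood higher in these cells: the 664 chromosome 8 genes of at least 5 CPM had a median log2 change with Trim71-/- of 0.52 with Tnrc6a and 0.49 with Cas9, against 0.00 and -0.01 for all genes. The part of this shift in the members was not tested, but their changes can be set beside it: 0.75 and 0.55 for Zfp958, 0.69 and 0.49 for Zfp930, and 0.31 and 0.11 for Zfp961.

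Zfp961 (chr8:71951038-71993792) stood at 30.8, 30.8 and 31.4 RPKM in Tnrc6a Trim71-/- and 23.7, 25.4 and 25.7 RPKM in Tnrc6a Ctrl, and at 37.8, 37.3 and 35.1 RPKM in Cas9 Trim71-/- and 32.7, 35.5 and 33.7 RPKM in Cas9 Ctrl. Its groups were apart with Tnrc6a (edgeR adjusted p = 5.03e-08) and overlapped with Cas9, where the call (edgeR adjusted p = 0.0316) was lost without Cas9 Ctrl replicate 1 or 3 (adjusted p = 0.177 and 0.0839) or Cas9 Trim71-/- replicate 1 or 2 (0.133 and 0.0979). Zfp963 (chr8:69741639-69749970) stood at 3.57, 3.57 and 3.39 RPKM in Tnrc6a Trim71-/-, 2.9, 2.78 and 3.13 RPKM in Tnrc6a Ctrl, 2.8, 2.75 and 2.26 RPKM in Cas9 Trim71-/- and 2.64, 2.24 and 3.09 RPKM in Cas9 Ctrl. Its libraries overlapped under Cas9 and lay apart under Tnrc6a. Zfp963 and Zfp964, the other chromosome 8 members, had changes with Trim71-/- of 0.26 (SE 0.12) and 0.38 (SE 0.20) with Tnrc6a and -0.03 (SE 0.13) and 0.04 (SE 0.24) with Cas9, none past the threshold. Zfp964 passed under Tnrc6a without Tnrc6a Trim71-/- replicate 1, and the small values under Cas9 changed sign as single libraries were left out. With members on chromosome 8 left out, 8 of 56 were higher and 18 lower with Tnrc6a, and 4 of 56 higher and 21 lower with Cas9.

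**Figure D5:**
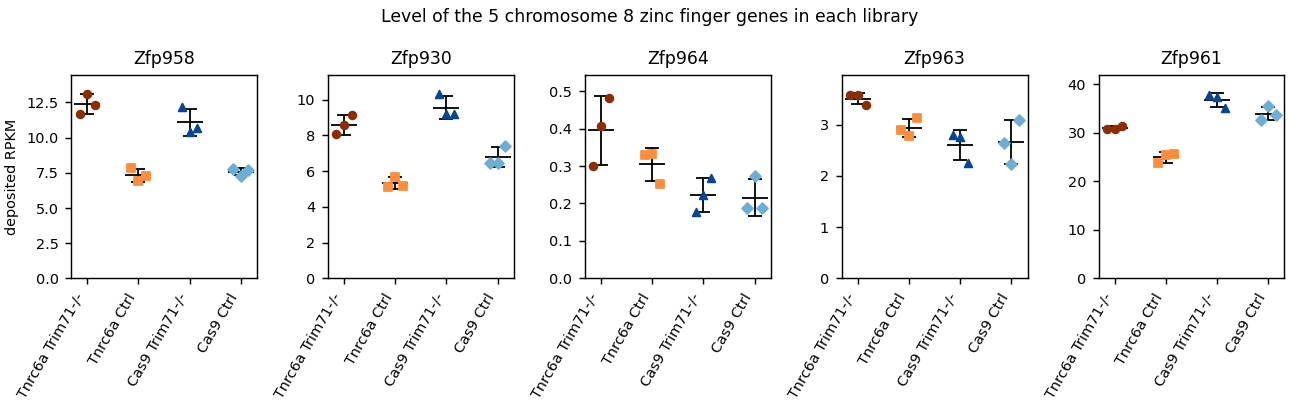
Deposited RPKM of the 5 chromosome 8 zinc finger genes in each library, with group mean and SD (black), in order along the chromosome. For Zfp958 and Zfp930 each Trim71-/- group lies above the control group of the same construct, while Zfp964 lies between 0.176 and 0.482 RPKM.

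Off chromosome 8 the called rises of genes of at least 0.5 CPM were 0.45 or less on the log2 scale with Trim71-/-, and the scarce Zfp972 rose by 1.19 with Cas9. Zfp945 (chr17:22846697-22867134) stood at 2.6, 2.56 and 2.6 RPKM in Tnrc6a Trim71-/-, 2.0, 2.13 and 2.01 RPKM in Tnrc6a Ctrl, 3.45, 3.24 and 3.01 RPKM in Cas9 Trim71-/- and 3.01, 3.25 and 3.35 RPKM in Cas9 Ctrl. Zfp975 (chr7:42660105-42692742) stood at 4.62, 4.56 and 4.73 RPKM in Tnrc6a Trim71-/-, 3.71, 3.6 and 3.83 RPKM in Tnrc6a Ctrl, 5.77, 4.96 and 5.08 RPKM in Cas9 Trim71-/- and 5.35, 5.33 and 5.49 RPKM in Cas9 Ctrl. Zfp965/Gm11007 (chr2:175643978-175653860) stood at 2.26, 2.45 and 2.57 RPKM in Tnrc6a Trim71-/-, 1.76, 1.46 and 2.1 RPKM in Tnrc6a Ctrl, 3.82, 3.22 and 3.34 RPKM in Cas9 Trim71-/- and 3.25, 3.23 and 3.68 RPKM in Cas9 Ctrl. All 3 were higher in Trim71-/- libraries under Tnrc6a without overlap and overlapped under Cas9. With Tnrc6a, Zfp945 rose 1.26-fold (edgeR adjusted p = 6.34e-05), Zfp975 rose by 0.32 on the log2 scale (edgeR adjusted p = 0.000433) and the row Zfp965/Gm11007 rose 1.36-fold (edgeR adjusted p = 0.0202). The last call was lost without Tnrc6a Ctrl replicate 1 or 2 (adjusted p = 0.068 and 0.178) or Tnrc6a Trim71-/- replicate 2 or 3 (0.0673 and 0.0724), and all 100-base windows of that row occur in another gene. With Cas9, Zfp948 rose 1.32-fold (edgeR adjusted p = 0.000346) and Zfp956 1.18-fold (edgeR adjusted p = 0.0177). The Zfp956 call was lost without Cas9 Ctrl replicate 2 or Cas9 Trim71-/- replicate 1 (adjusted p = 0.0636 and 0.132). Zfp934 (chr13:62479827-62571199) stood at 3.53, 3.67 and 3.18 RPKM in Tnrc6a Trim71-/-, 2.81, 2.58 and 3.15 RPKM in Tnrc6a Ctrl, 5.51, 5.51 and 5.39 RPKM in Cas9 Trim71-/- and 4.81, 4.83 and 4.89 RPKM in Cas9 Ctrl. Its groups were apart within both constructs. With Cas9 Zfp934 rose 1.13-fold (edgeR adjusted p = 0.0446), a call lost without any one of the 6 libraries compared (adjusted p from 0.0511 to 0.104). Zfp972, on chromosome 2, was named after its values were seen, since it was too low for the naming rule. It stood at 0.542, 0.937 and 0.821 RPKM in Tnrc6a Trim71-/-, 0.604, 0.582 and 0.384 RPKM in Tnrc6a Ctrl, 1.09, 0.765 and 0.533 RPKM in Cas9 Trim71-/- and 0.489, 0.234 and 0.313 RPKM in Cas9 Ctrl. Its groups were apart with Cas9, from 10 to 28 reads a library in Cas9 Trim71-/- and 4 to 11 in Cas9 Ctrl, and overlapped with Tnrc6a. With Cas9 its rise of 2.28-fold (log2 change 1.19, SE 0.43, edgeR adjusted p = 0.027) was the largest of the 61 genes. That call was lost without Cas9 Ctrl replicate 2 or 3 (adjusted p = 0.0954 and 0.0813) or Cas9 Trim71-/- replicate 1 (0.189), and with DESeq2 (0.051).

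Whether the Trim71-/- change differed between Tnrc6a and Cas9 cells was tested as an interaction, the Trim71-/- change with Tnrc6a minus that with Cas9. Of 61 genes, 5 had a positive interaction (8.2%, against 4.68% of all genes) and 1 a negative one (1.6%, against 2.25%) at an edgeR adjusted p under 0.05. Over all genes 958 were positive and 461 negative, and 768 and 613 with relative log expression factors, where 4 members were positive and 1 negative. DESeq2 gave 710 and 571, and log2(RPKM + 1) values 630 and 618. The count of positive members was 1 without Tnrc6a Ctrl replicate 1 or 2 or Tnrc6a Trim71-/- replicate 2, 2 without Cas9 Ctrl replicate 3, Cas9 Trim71-/- replicate 3 or Tnrc6a Trim71-/- replicate 1 or 3, and 3 without Cas9 Ctrl replicate 2. Of the chromosome 4 genes 1 of 12 passed, Zfp979 (0.22, SE 0.06, edgeR adjusted p = 0.0155), and the interaction values of all 12 lay between -0.12 and 0.22. The values of Zfp988 were -0.12 (SE 0.06), of Zfp980 -0.07 (SE 0.06) and of Zfp982 0.11 (SE 0.10), none past the threshold. The median interaction over this cluster was 0.01.

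Zfp948 (chr17:21567008-21588699) had the negative interaction (-0.58, SE 0.12, edgeR adjusted p = 0.00121). It stood at 6.80, 6.48 and 5.63 RPKM in Tnrc6a Trim71-/-, 6.42, 7.17 and 7.89 RPKM in Tnrc6a Ctrl, 7.39, 6.65 and 6.79 RPKM in Cas9 Trim71-/- and 5.04, 5.09 and 5.72 RPKM in Cas9 Ctrl. Cas9 Ctrl lay lowest on average, and the Trim71-/- and control libraries were apart under Cas9 and overlapped under Tnrc6a. Zfp941 (chr7:140807449-140822178) had the largest positive interaction (0.56, SE 0.11, edgeR adjusted p = 0.000894), at 4.51, 4.98 and 4.91 RPKM in Tnrc6a Trim71-/-, 4.11, 3.96 and 3.87 RPKM in Tnrc6a Ctrl, 3.17, 2.81 and 2.60 RPKM in Cas9 Trim71-/- and 3.21, 3.63 and 3.72 RPKM in Cas9 Ctrl. With Trim71-/- it was higher under Tnrc6a and lower under Cas9, without overlap in either, and its exons overlap Gm45785 on the same strand. Zfp975 (0.35, SE 0.10) and Zfp945 (0.32, SE 0.09) passed at edgeR adjusted p = 0.0275 and 0.0256, and Zfp961 (0.20, SE 0.06) at 0.0293. The Zfp975 call was lost without Cas9 Ctrl replicate 3, Cas9 Trim71-/- replicate 2 or 3, Tnrc6a Ctrl replicate 1 or 2 or any of the Tnrc6a Trim71-/- libraries (adjusted p from 0.0516 to 0.134). The Zfp945 call was lost without Cas9 Ctrl replicate 2 or 3, Cas9 Trim71-/- replicate 3 or any of the Tnrc6a libraries (adjusted p from 0.0516 to 0.126). Without Tnrc6a Ctrl replicate 1 or 2 or Tnrc6a Trim71-/- replicate 2, only 1 positive member was left. The calls of Zfp961 and Zfp979 cannot both have held there.

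Sequence shared between copies sets how far single genes can be read. Over 100-base windows of each gene's annotated transcripts, 32 of the 61 genes had under 5% of windows in another gene. Of these 32, 12 were lower with Tnrc6a in Trim71-/- cells (37.5%, against 30.9% of all genes) and 15 in control cells (46.9%, against 33.1%). With Trim71-/-, 10 were lower under Tnrc6a (31.2%, against 19.0%) and 12 under Cas9 (37.5%, against 19.1%). Of the 29 genes above that limit, the same counts were 19, 24, 8 and 9 (65.5%, 82.8%, 27.6% and 31.0%). With Tnrc6a, the median log2 change in Trim71-/- and control cells was -0.04 and -0.17 for the 32 genes. For the 29 genes it was -0.52 and -0.67, so the larger falls with Tnrc6a lay among genes that share sequence. Zfp987 shared 70.81% of its windows and Zfp988 44.56%, whereas Zfp990 shared 3.6%, Zfp982 3.06% and Zfp985 1.73%, all of which fell with Tnrc6a. Over 50-base windows the shares were 89.0% and 68.14%, and 29.08%, 11.89% and 15.88%, in the same order. Other genes named above with high shares of 100-base windows were Zfp991 (70.34%), Zfp980 (45.57%), Zfp997 (30.1%), Zfp992 (28.6%) and Zfp932 (18.51%). How reads that map to several places were counted is not given in the sources used here, so values of genes with a high share are best read as sums. Exons of 12 members overlap another annotated gene, 9 on the same strand.

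The transcripts of these genes also carry repeated letters that match microRNA seeds, which bear on a silencing study because Tnrc6a acts with Argonaute. The seed is bases 2 to 8 and is in capitals (RefSeq, GRCm38.p6). The first pair share a seed and belong to families abundant in embryonic stem cells, and miR-181a is known in human cells to act on repeated coding sites of zinc finger genes.
mmu-miR-294-3p (chr7:3220691-3220712, plus strand): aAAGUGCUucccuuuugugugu
mmu-miR-302b-3p (chr3:127545275-127545297, plus strand): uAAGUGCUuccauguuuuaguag
mmu-miR-181a-5p (chr1:137966468-137966490, plus strand): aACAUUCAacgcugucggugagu
mmu-miR-23a-3p (chr8:84208563-84208583, plus strand): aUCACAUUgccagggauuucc

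The site of the mmu-miR-181a-5p seed, TGAATGT, was found in the coding sequence of 56 of 60 genes (93.33%) at 4.78 per kilobase, against 12.94% of all listed coding genes at 0.128 per kilobase. The site of mmu-miR-23a-3p, AATGTGA, was found in the coding sequence of 12 of 12 chromosome 4 genes at 5.039 per kilobase. It was found in 6 of 10 chromosome 2 genes at 0.498 per kilobase and in 31 of 38 members outside both clusters at 1.99 per kilobase, against 0.113 per kilobase in all genes. In the 3' untranslated region, TGAATGT and AATGTGA were each found in 48.98% of 49 members, against 16.16% and 14.42% of all genes. AGCACTT, the shared site of mmu-miR-294-3p and mmu-miR-302b-3p, was found in 3.33% of the coding sequences of these genes, against 12.54% of all genes. Also scanned were the sites of mmu-let-7a-5p (0.0% of coding sequences, against 14.52%) and mmu-miR-17-5p (1.67%, against 9.13%). Zinc finger genes outside the members were not counted apart, so it was not tested whether these shares are particular to the members. Zfp933, whose RNA was called in no comparison, holds 6 of the TGAATGT and 5 of the AATGTGA sites. Small RNAs were not measured here, and a match is no site of action.

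Genes for proteins that KRAB zinc fingers work with were mostly lower with Tnrc6a. Of 33 names for corepressors and chromatin partners, 32 were listed. With Tnrc6a, 21 were lower and 4 higher in Trim71-/- cells, and 21 lower and 4 higher in control cells (65.6% lower and 12.5% higher in each, against 30.9% and 32.0% of all genes in Trim71-/- cells and 33.1% and 30.4% in control cells), with a median log2 change of -0.25 and -0.22. Trim28, the shared corepressor, averaged 335.0 RPKM in Tnrc6a Trim71-/-, 392.0 RPKM in Tnrc6a Ctrl, 537.0 RPKM in Cas9 Trim71-/- and 572.0 RPKM in Cas9 Ctrl, and fell with Tnrc6a by 0.68 ± 0.03 in Trim71-/- cells on the log2 scale (± SE). Uhrf1, which guides maintenance DNA methylation, fell by 0.70 ± 0.04 in Trim71-/- cells and by 0.68 ± 0.04 in control cells. The HP1 protein gene Cbx5 fell by 0.61 ± 0.04 in Trim71-/- cells, and the remodeller Smarcad1 by 0.58 ± 0.04 in control cells. The 4 rises in Trim71-/- cells became 2 without Cas9 Trim71-/- replicate 1 or Tnrc6a Trim71-/- replicate 1 and 1 without Tnrc6a Trim71-/- replicate 2. Suv39h1, a methyltransferase for H3K9, rose with Tnrc6a by 0.82 ± 0.05 in Trim71-/- cells and 0.79 ± 0.05 in control cells.

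With Trim71-/-, 10 of the 32 were lower and 5 higher under Tnrc6a, and 9 lower and 3 higher under Cas9, with medians of -0.07 and -0.06. That is 31.2% lower and 15.6% higher under Tnrc6a, against 19.0% and 20% of all genes, and 28.1% lower and 9.4% higher under Cas9, against 19.1% and 17.1%. The deacetylase gene Hdac2 rose by 0.76 ± 0.04 with Tnrc6a and 0.88 ± 0.04 with Cas9, Mphosph8 of the HUSH complex by 0.35 ± 0.04 and 0.30 ± 0.04, and the remodeller Chd3 by 0.26 ± 0.06 and 1.22 ± 0.07 (log2, ± SE). Resf1, a partner of Setdb1, fell by 0.41 ± 0.04 with Cas9, and Ehmt2 by 0.25 ± 0.04 with Tnrc6a. In the interaction, Chd3 was negative (-0.96, SE 0.10) and Resf1 positive (0.20, SE 0.06). The count of positive genes, 1, was 3 without Tnrc6a Ctrl replicate 3 and 0 without Cas9 Ctrl replicate 2 or 3, Cas9 Trim71-/- replicate 1 or 3, Tnrc6a Ctrl replicate 1 or 2 or Tnrc6a Trim71-/- replicate 1 or 2, and with limma-voom or DESeq2. The count of negative genes, 1, was 2 without Cas9 Trim71-/- replicate 1 or Tnrc6a Ctrl replicate 1, 3 without Tnrc6a Trim71-/- replicate 2 and 5 without Tnrc6a Ctrl replicate 2. The 5 rises with Trim71-/- under Tnrc6a became 3 without Tnrc6a Ctrl replicate 1 or 2 or Tnrc6a Trim71-/- replicate 2. Setdb1 itself had values between -0.08 and 0.07 in the 4 comparisons, none past the threshold.

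A list of 16 characterised KRAB zinc finger genes with other names moved in both directions. With Tnrc6a 7 were lower and 6 higher in Trim71-/- cells (43.8% and 37.5%, against 30.9% and 32.0% of all genes), and 8 lower and 5 higher in control cells (50.0% and 31.2%, against 33.1% and 30.4%). With Trim71-/- 4 were lower and 2 higher under Tnrc6a (25% and 12.5%, against 19.0% and 20%), and 6 lower and 1 higher under Cas9 (37.5% and 6.2%, against 19.1% and 17.1%), and 1 was positive in the interaction, Zfp57 (0.28, SE 0.05). Zfp57, which keeps imprints methylated, averaged 158.0 RPKM in Tnrc6a Trim71-/-, 92.4 RPKM in Tnrc6a Ctrl, 229.0 RPKM in Cas9 Trim71-/- and 163.0 RPKM in Cas9 Ctrl. It fell with Tnrc6a by 0.54 and 0.82 in Trim71-/- and control cells and rose with Trim71-/- by 0.77 and 0.49 under Tnrc6a and Cas9, all past the threshold. Zfp809, which silences murine leukaemia provirus, averaged 11.5, 15.3, 8.71 and 13 RPKM in the same order of groups. Zfp600 and Rex2, both inside the chromosome 4 span, gave the largest falls of the list in each comparison.

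Markers of other cell states moved with both factors. The 9 markers of 2-cell-like cells summed to 176.0 to 189.0 CPM in Tnrc6a Trim71-/-, 486.0 to 501.0 CPM in Tnrc6a Ctrl, 1.57 to 2.35 CPM in Cas9 Trim71-/- and 21.3 to 23.6 CPM in Cas9 Ctrl, with 9 of 9 higher with Tnrc6a and 9 of 9 lower with Trim71-/-. The 8 primitive endoderm markers summed to 25.6 to 30.8 CPM in Tnrc6a Trim71-/-, 194.0 to 201.0 CPM in Tnrc6a Ctrl, 13.2 to 16 CPM in Cas9 Trim71-/- and 84.0 to 91.2 CPM in Cas9 Ctrl, with 8 of 8 lower with Trim71-/-. With Tnrc6a, 8 of these endoderm markers were higher in control cells, and 6 were higher and 1 lower in Trim71-/- cells. The 8 pluripotency markers summed to 5535.9 to 5629.6 CPM in Tnrc6a Trim71-/-, 3574.1 to 3623.2 CPM in Tnrc6a Ctrl, 7124.5 to 7262.7 CPM in Cas9 Trim71-/- and 5812.8 to 5819.1 CPM in Cas9 Ctrl. Of these 8, 6 were lower with Tnrc6a in Trim71-/- cells and 8 in control cells, and 8 were higher with Trim71-/- under Tnrc6a and 7 under Cas9. Of 7 fibroblast markers 4 were listed, and they summed to 840.0 to 1036.3 CPM in Tnrc6a Trim71-/-, 897.0 to 1084.0 CPM in Tnrc6a Ctrl, 774.0 to 839.0 CPM in Cas9 Trim71-/- and 987.0 to 1057.9 CPM in Cas9 Ctrl. Nearly all of that sum was Fn1, at group means of 67.3 to 87.4 RPKM, while Thy1 lay between 2.27 and 4.24, Col1a1 between 0.252 and 0.613 and Col1a2 between 0.0302 and 0.0727 RPKM. With Tnrc6a 3 of the 4 were higher in Trim71-/- cells and 2 in control cells, and with Trim71-/- 2 were higher under Tnrc6a, and 1 higher and 2 lower under Cas9. Sums of the 5 neural markers lay between 137.0 and 199.0 CPM. With Tnrc6a 3 of these were higher and 2 lower in Trim71-/- cells, and 1 higher and 2 lower in control cells. With Trim71-/- 2 were higher and 1 lower under Tnrc6a, and 2 higher and 2 lower under Cas9. The part of cell state in the changes of the zinc finger genes was not tested.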

How the data were processed

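Total RNA was sequenced with a stranded TruSeq total RNA kit, per the labels' protocols. The submitters' processing notes name bcl2fastq 2.20, STAR 2.7.3a and the builds GRCm38 and mm10. For counting settings, annotation release, strand setting and read length, nothing is given in the sources used here. The authors deposited 1 table with a raw count and an RPKM value per gene and library, the RPKM per kilobase of their own gene length, per the file headers.

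Counts of all 12 libraries were fitted together with edgeR 4.0.16 in R 4.3.3 (filterByExpr by group, TMM factors, robust quasi-likelihood test, two-sided, Benjamini-Hochberg over 20486 genes, threshold 0.05), after the code was tested on simulated data. Log2 fold changes and their standard errors come from that fit, and levels are deposited RPKM. Alternatives used limma 3.58.1, DESeq2 1.42.0, other scaling factors and filters, log2 of RPKM plus 0.1 or 1, a replicate block and leaving out each library. Genes with a value in every library were the 5 largest rises and falls per comparison past the threshold with at least 0.5 CPM on average, up to 3 of each sign in the interaction, the 6 of highest mean RPKM and all on chromosome 8; Zfp932, Zfp933 and Zfp972 were added after their values were seen. The members and lists were chosen with earlier results of these data known. Deviations of log2 CPM from each group's mean correlated between -0.0145 and 0.0215 for same-numbered replicates of the groups compared. These replicates were not treated as pairs. Positions and transcripts are from GENCODE M21, sequences from RefSeq. No amino acid sequences were used here.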

Additional observations from a re-analysis of the deposited data

Results flagged for a closer look

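For 6 of the zinc finger genes the change with Trim71-/- differed between Tnrc6a and Cas9 cells by the interaction test (edgeR adjusted p under 0.05), against 12 at an unadjusted p under 0.05. Of these 6, 5 were positive (8.2% of members, against 4.68% of all genes) and 1 negative (1.6%, against 2.25%). The positive count depended on single libraries, and the calls of Zfp975 and Zfp945 were lost when certain single libraries were left out, as given above. In the fits that left 1 positive member, the calls of Zfp961 and Zfp979 cannot both have held. Values are the log2 change under Tnrc6a minus that under Cas9. Zfp948 had -0.58, with a change of -0.18 under Tnrc6a and 0.40 under Cas9. Zfp941 had 0.56, with 0.27 under Tnrc6a and -0.29 under Cas9. Zfp975 had 0.35, with 0.32 and -0.03, and Zfp945 had 0.32, with 0.34 and 0.02, in the same order. Zfp979 had 0.22, with 0.14 and -0.08, and Zfp961 had 0.20, with 0.31 and 0.11.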

How the results depend on the processing

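These alternatives for clusters were chosen after seeing the data. The counts of lower genes in the chromosome 4 cluster (10 with Trim71-/- under Cas9 and under Tnrc6a, 11 with Tnrc6a in control and Trim71-/- cells) stayed at those numbers with the other scalings, filters, tests and units, the block and without each library. With a fold of at least 1.5 they were 6, 7, 11 and 11, and on chromosome 2 they were 0, 0, 7 and 2. No share of all genes past this fold is given beside them. Leaving out each library gave 3 to 6 higher members with Trim71-/- under Cas9, 6 to 11 under Tnrc6a and 1 to 5 positive interactions. For the corepressor genes it gave 3 to 5 higher with Trim71-/- under Tnrc6a, 1 to 3 higher with Tnrc6a in Trim71-/- cells, and 0 to 3 positive and 1 to 5 negative interactions. On chromosome 2, 0 to 1 gene was lower with Trim71-/- under Cas9, and 0 with limma-voom, DESeq2, the replicate block, TMM without chromosome 8 genes or a fit on the groups compared only.

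A fold of at least 1.5 besides the adjusted p left 1 higher and 8 lower members with Trim71-/- under Cas9, 2 and 9 under Tnrc6a, 1 and 25 with Tnrc6a in control cells, 4 and 17 in Trim71-/- cells, and 0 and 0 in the interaction. Of the corepressor genes it left 0 lower under Cas9 and 1 higher and 0 lower under Tnrc6a with Trim71-/-, 2 higher and 1 lower with Tnrc6a in control cells, 1 higher and 4 lower in Trim71-/- cells, and 0 positive in the interaction. The shares of all genes past this fold are not given here, so these counts have no background beside them. Without members whose exons overlap another gene, 4, 7 and 5 were higher with Trim71-/- under Cas9, under Tnrc6a, and with Tnrc6a in Trim71-/- cells, and 3 were positive in the interaction. The summed log2 ratios were then -0.47 and -0.34 with Trim71-/- under Cas9 and Tnrc6a, and -0.88 and -0.76 with Tnrc6a in control and Trim71-/- cells. Without the member of highest summed CPM they were -0.20 with Trim71-/- under Tnrc6a and -0.77 and -0.60 with Tnrc6a. Both RPKM scales gave 2 positive members and 0 positive corepressor genes. With RLE factors 16 corepressor genes were lower with Trim71-/- under Tnrc6a, and 0 were positive and 3 negative in the interaction, against 0 and 2 with limma-voom and 0 and 3 with DESeq2. The cause of these shifts was not tested.

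With Trim71-/- under Cas9, Zfp964 ranged from -0.10 to 0.22 and Zfp963 from -0.13 to 0.09 as libraries were left out: Zfp964 was -0.05 without Cas9 Ctrl replicate 1 or 3 and -0.10 without Cas9 Trim71-/- replicate 3, and Zfp963 was 0.09 without Cas9 Ctrl replicate 3 and 0.05 without Cas9 Trim71-/- replicate 3. The replicate block gave 6 higher and 20 lower members there, and Zfp934 lost its call (edgeR adjusted p = 0.0543). At a cluster distance of 250000 bases there were 5 clusters: chromosome 4 kept 7 of its 12 genes (without Zfp990, Zfp980, Zfp987, Zfp992 and Zfp981), chromosome 2 became a pair of 3 genes each, chromosomes 17 and 7 held 9 and 3, and chromosomes 8 and 13 had none. Of the 7, 5 were lower with Trim71-/- under each construct and 6 with Tnrc6a in each genotype, and of the other 5 all were lower in the 4 comparisons. With the 6 genes named by the annotation only, 25 and 22 of 67 were lower with Trim71-/- under Cas9 and Tnrc6a (37.3% and 32.8%, against 19.1% and 19.0% of all genes). With Tnrc6a in control and Trim71-/- cells, 44 and 36 were lower (65.7% and 53.7%, against 33.1% and 30.9%). Depth limits Zfp964, at 0.284 RPKM on average.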
